A study of Danio rerio with 2 samples.

Results

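The olig family of zebrafish comprises 4 genes, *olig1* (ENSDARG00000040948), *olig2* (ENSDARG00000040946), *olig3* (ENSDARG00000074253) and *olig4* (ENSDARG00000052610). They were taken by symbol from the 27771 gene identifiers of the series, each symbol belonging to 1 identifier, and all 4 were detected in both libraries used. In the RefSeq gene table of zebrafish (assembly GRCz12tu) *olig1* and *olig2* were direct neighbours, with *ercc1* on the other side of *olig1* and *gatd3* on the other side of *olig2*, whereas *olig3* and *olig4* were not neighbours of each other.

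Olig proteins are basic helix-loop-helix transcription factors of the neural tube. Olig2 marks the pMN domain, a band of ventral progenitors that gives rise to motor neurons first and to oligodendrocytes later, and it is needed for both. Olig1 is known in mouse for its part in oligodendrocyte differentiation, and Olig3 in mouse and chick for dorsal progenitors and for young neurons of several classes, V3 interneurons among them. The role of *olig4* is less well known and is not assumed here.

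The cells came from pooled trunks of Tg(olig2:dsred) zebrafish embryos, in which a red fluorescent protein is made under the control of *olig2* sequence, and the sorted fluorescent cells were profiled by droplet RNA sequencing at 28 hpf and at 60 hpf (hours post fertilization). Each stage had 1 library, both stages carried the same transgene, and 42 hpf was not analysed here. Since the gate itself reads *olig2* control sequence, and the fluorescent protein can outlast the transcript in daughter cells, the sorted cells are a selected population and do not show how *olig2* stands in the whole trunk. The stage and the library cannot be told apart, no test was possible, and every interval below is a 95% interval for counting error only.

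The 28 hpf library held 10124 cells and 95108584 unique molecular identifiers (UMIs, counts of captured RNA molecules), and the 60 hpf library 7905 cells and 70432500 UMIs. After the minimum of 1000 genes per cell, 8390 and 5517 cells were kept, with medians of 7375.5 and 6809 UMIs. A total of 24 barcodes occurred in both libraries, 16 of them among the cells kept. Cells were clustered without the 4 olig genes, and clusters were named from marker genes, so that names ending in -like are rebuilt, and their cells may be others than those in the groups of the study. A level is the number of UMIs of a gene per 10000 UMIs of a class. The kept cells held 114864 UMIs of *olig2*, 2814 of *olig3*, 1812 of *olig4* and 417 of *olig1* at 28 hpf, and 44599, 232, 737 and 1873 at 60 hpf, so that values of *olig2* are by far the most precise.

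Trunk cells that should lack the family set the background. At 28 hpf, 724 erythroid-like cells, whose median depth was 33240.5 UMIs, had an *olig2* level of 0.449 (0.423 to 0.476), and 39.5% of them held an *olig2* UMI. With every cell thinned to 2000 UMIs, which removes the difference in depth, the share was 5.82%. Thinning discards the largest part of the deepest cells, so a background share taken after it may be too low in them. The 21 muscle-like cells at 28 hpf stood higher, at 1.46 (1.08 to 1.93), with 38.1% of them (18.1% to 61.6%) holding an *olig2* UMI after thinning. At 60 hpf the *olig2* level was 0.187 in erythroid-like, 0.270 in muscle-like and 0.537 in skin-like cells, and the thinned shares were 1.51%, 3.85% and 4.35%, with median depths of 31210.5, 14358 and 11741 UMIs. The other members were near 0 in erythroid-like cells, at 0.00247 for *olig1*, 0.0107 for *olig3* and 0.00904 for *olig4* at 28 hpf. One exception was *olig4* in muscle-like cells at 28 hpf, where all 22 UMIs lay in 1 cell.

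**Figure D1:**
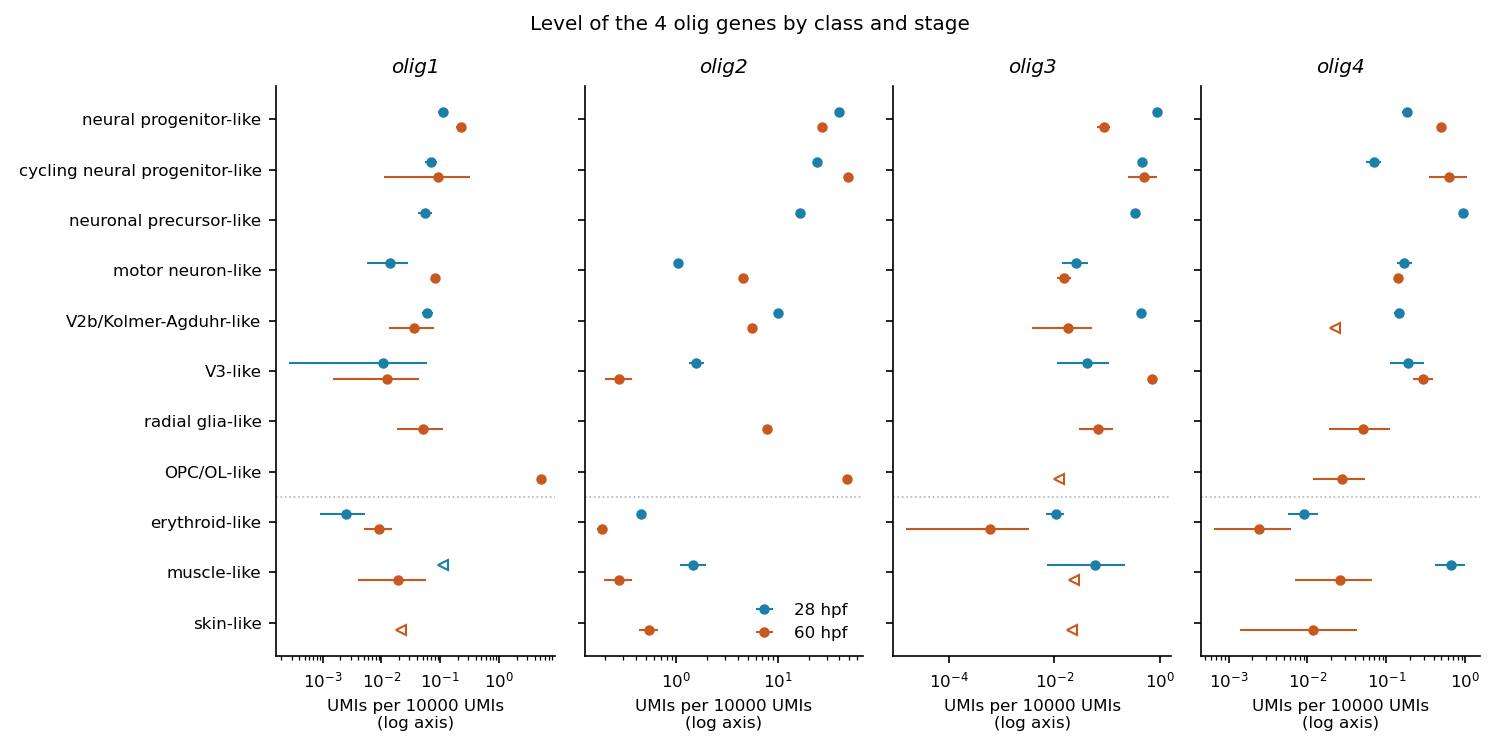
Level of each olig gene in UMIs per 10000 UMIs (log axis, a range of its own for each gene) by class and stage, with 95% counting intervals and open triangles for the upper limit where no UMI was found; classes under the dotted line should lack the genes. *olig1* stood highest in OPC/OL-like cells (5.07), *olig2* in progenitor-like cells at 28 hpf (39.4) and in cycling progenitor-like and OPC/OL-like cells at 60 hpf (48.3 and 48.04), *olig3* in progenitor-like cells at 28 hpf (0.901) and V3-like cells at 60 hpf (0.731), and *olig4* in neuronal precursor-like cells at 28 hpf (0.947).

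At 28 hpf *olig2* was highest in dividing and non-dividing progenitors and lower in each neuron class (all neighbours in the order of the levels were apart). The level was 39.4 (39.0 to 39.8) in 1461 neural progenitor-like cells, of which 93.8% held an *olig2* UMI and 89.1% after thinning. It was 24.1 (23.8 to 24.4) in 1206 cycling neural progenitor-like cells, with 72.1% after thinning. The ratio of cycling over non-cycling cells was -0.71 (-0.73 to -0.69) on the log2 scale, and the other members lay on the same side, at -0.68 for *olig1*, -0.98 for *olig3* and -1.39 for *olig4*. Neuronal precursor-like cells, named from genes of newly committed neurons such as *neurod4* and *insm1a*, had 16.3 (16.1 to 16.6) over 1559 cells. The level was 9.87 (9.72 to 10.03) in 1364 V2b/Kolmer-Agduhr-like cells, which are GABAergic interneurons and neurons that touch the central canal.

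Motor neuron-like cells at 28 hpf held little *olig2*, 1.03 (0.946 to 1.13) over 645 cells, which was 30.1-fold (27.6 to 32.9) below the progenitors, cycling or not. This ratio, -4.91 on the log2 scale, was -5.53 without predicted doublets and -3.46 at Louvain resolution 2, a finer clustering. Their thinned share, 12.97% (10.4% to 15.9%), lay above that of the erythroid-like cells (4.22% to 7.78%) but not above that of the 21 muscle-like cells. Without thinning, 32.2% of motor neuron-like cells held an *olig2* UMI, below the 39.5% of the deeper erythroid-like cells. The 122 V3-like cells, named from *uncx* and *sim1a*, had 1.57 (1.33 to 1.85) and a thinned share of 10.9% (5.95% to 17.96%). Their level was above that of the erythroid-like but not of the muscle-like cells, and 40.3% of their *olig2* UMIs came from 1 cell. The thinned share of the V3-like cells overlapped that of the erythroid-like cells, and without thinning 29.5% of them held an *olig2* UMI. Whether these low values differ from background thus depends on the class set beside them, on thinning and on whether level or share is read. Within the precursors *olig2* was uneven. Cluster 4 stood at 27.4 (26.9 to 27.8), close to the progenitors, and cluster 7, in which 90.2% of cells held the motor neuron factor *mnx1*, at 4.31 (4.12 to 4.50), 6.36-fold lower (6.06 to 6.67). The V2b/Kolmer-Agduhr-like clusters were as uneven, with 12.3 in cluster 5 and 1.86 in cluster 9, a 6.63-fold difference (6.14 to 7.17).

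At 60 hpf *olig2* was highest in the oligodendrocyte lineage and in the few cycling progenitors, whose levels were not apart. It was 48.04 (47.3 to 48.8) in 353 OPC/OL-like cells (oligodendrocyte progenitor cells and oligodendrocytes), 88.0% of which held an *olig2* UMI after thinning, with up to 300 UMIs in 1 cell. This was 1.74-fold (1.70 to 1.78) the level of the progenitors, cycling or not. Non-cycling progenitor-like cells had 26.8 (26.4 to 27.3), with 61.8% after thinning, though 39.2% of these cells held *mnx1*, so that the name is less sure than at 28 hpf (3.97%). The 27 cycling ones had 48.3 (45.4 to 51.3), whose interval overlapped that of the OPC/OL-like cells. Radial glia-like cells, which share glial genes such as *gfap* with progenitors, had 7.72 (7.23 to 8.23), and V2b/Kolmer-Agduhr-like cells 5.51 (5.16 to 5.88), though only 0.605 in cluster 19, the main cluster of that class at this stage. V3-like cells had 0.270 (0.196 to 0.363), 102-fold (76.2 to 141) below the progenitors, and their thinned share of 6.83% (4.03% to 10.7%) overlapped that of skin-like cells (1.20% to 10.8%).

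Motor neuron-like cells at 60 hpf held 4.48 (4.40 to 4.56) *olig2* UMIs per 10000 over 2624 cells, with 19.6% of cells after thinning, above the 1.51% to 4.35% of the background classes. The level was 6.18-fold (6.04 to 6.33) below the progenitors of the same stage and 4.34-fold (3.97 to 4.74) above the motor neuron-like cells of 28 hpf. The log2 ratio over the progenitors, -2.63, was -4.63 when cells with more than 4000 genes or over 20% mitochondrial UMIs were left out. The ratio of 28 hpf, -4.91, was then -4.20, so that the order of the stages turned. The clusters of this class differed widely. Cluster 1, with 1235 cells led by genes such as *bmp16* and *esrrga*, stood at 5.82 (5.71 to 5.93) and 30.2% of cells after thinning. Clusters 12 and 20 stood at 1.26 and 1.27, and clusters 13 and 17 at 0.459 and 0.456, 12.7-fold (10.5 to 15.5) lower in cluster 13 than in cluster 1. The levels of clusters 13 and 17 were not above the 0.537 of skin-like cells of this stage. Cluster 1 held 11551 of the 12102 *olig2* UMIs of the class, and its median depth was 10924 UMIs against 6215.5 for the class. The signal was also uneven between cells. The 913 cells of the class with an *olig2* UMI had a mean of 13.3 and a median of 2, with up to 220 in 1 cell. In cluster 20, 39.8% of the *olig2* UMIs came from 1 cell.

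*olig1* was detected at both stages, and its level in the oligodendrocyte lineage stood apart from that of every other class. In OPC/OL-like cells it reached 5.07 (4.81 to 5.33), with 1487 UMIs, 22.9-fold (19.1 to 27.7) above the progenitors of 60 hpf, and this class held 79.4% of the *olig1* UMIs of the stage with 6.40% of its cells. Only 20.6% of these cells held an *olig1* UMI after thinning. The next level was 0.226 (0.188 to 0.270) in progenitor-like cells, where 1 cell of cluster 6 held 36 UMIs, 29.5% of the 122 *olig1* UMIs of that cluster. Motor neuron-like cells had 0.0807 (0.0703 to 0.0921), and their thinned share, 1.12%, did not exceed the 2.59% of mesenchyme-like cells. The thinned share of progenitor-like cells, 2.85% (1.79% to 4.28%), overlapped that of mesenchyme-like cells (0.537% to 7.37%) as well. At 28 hpf the level was 0.112 (0.0927 to 0.135) in progenitor-like cells, 2.62% of which held a UMI after thinning against 0 of the erythroid-like cells. It was 0.0700 in cycling progenitor-like, 0.0608 in V2b/Kolmer-Agduhr-like and 0.0561 in neuronal precursor-like cells, whose neighbouring intervals of difference included 0. Motor neuron-like cells had 7 *olig1* UMIs in all and V3-like cells 1.

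Within the OPC/OL-like class, *olig1* was lower in cells with more myelin transcripts. In the 142 cells without a UMI of 7 myelin genes (*mbpa*, *mbpb*, *plp1a*, *plp1b*, *mpz*, *cldnk* and *mag*) *olig1* stood at 10.4 (9.82 to 11.1), and in the 57 cells with 1 to 2 myelin UMIs at 7.19 (6.49 to 7.95). It was 1.47 (1.07 to 1.98) in the 28 cells with 3 to 9 myelin UMIs. In the 42 cells with 10 to 49 it had 0 UMIs (upper limit 0.130), and in the 84 cells with 50 or more it had 1 UMI, a level of 0.0124 (0.000314 to 0.0691). The share of cells with an *olig1* UMI was 44.4% (36.0% to 52.9%) at 0 myelin UMIs, 45.6% (32.4% to 59.3%) at 1 to 2 and 3.90% (1.44% to 8.29%) at 3 or more. *olig2* was present over the whole range, at 51.1, 45.4, 70.6, 61.6 and 32.7 in the same order, with 91.7% to 98.2% of cells holding a UMI. These ranges beyond 3 UMIs were set after the data were seen, and a range is not a cell type.

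**Figure D2:**
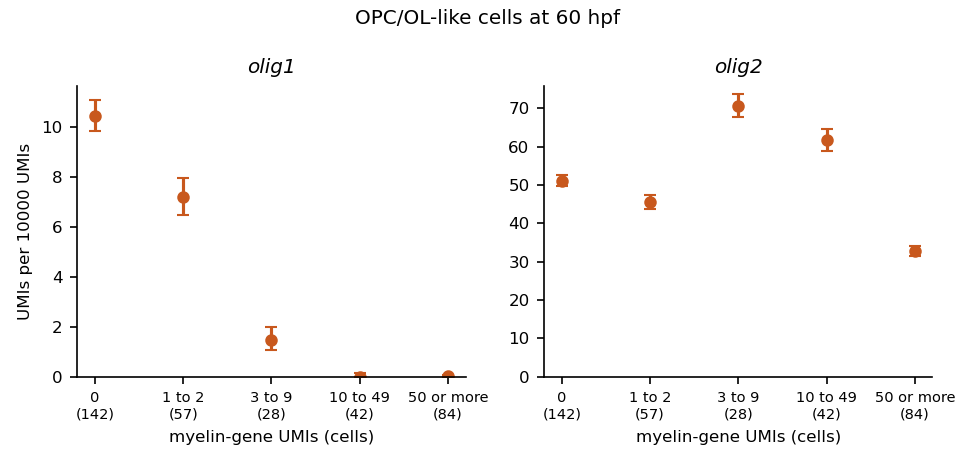
Level of *olig1* (left) and *olig2* (right) in UMIs per 10000 UMIs, with 95% counting intervals, in the 353 OPC/OL-like cells of 60 hpf grouped by their UMIs of 7 myelin genes, with the number of cells in brackets. *olig1* went from 10.4 to 1 UMI in all, while *olig2* stood between 32.7 and 70.6.

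A few cells carried most of the *olig1* signal. No *olig1* UMI was found in 258 of the 353 cells (73.1%), whereas 26 cells (7.37%) with 20 or more held 73.6% of the *olig1* UMIs, up to 129 in 1 cell. Of the 26 cells 5 were predicted doublets, against 21 of the 258, and the median depths were 9203.5 and 7019.5 UMIs. In these 26 cells *olig2* stood at 62.4 and *sox10*, a factor of the whole oligodendrocyte lineage, at 6.86, and the claudin gene *cldnk* had 0 UMIs. Finer clustering, chosen as an added look after the data were seen, divided the class along the same line. At Louvain resolution 2, a cluster of 216 cells led by *olig1*, *zcchc24*, *sox10*, *bcan* and *prdm8* had an *olig1* level of 8.45 (8.03 to 8.90), and a cluster of 137 cells led by *mbpb* held 1 *olig1* UMI. *olig2* was 50.03 (48.99 to 51.1) and 45.1 (43.9 to 46.3) in them. Only the cluster led by *mbpb* kept the OPC/OL name there, and the ratio of *olig1* over progenitors then turned to -4.98 on the log2 scale.

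Erythroid transcripts, summed over cells, differed between these groups. In 9 of the 353 OPC/OL-like cells the 10 erythroid markers made up 1% or more of UMIs, up to 49.8%, and none of the 9 was among the cells with *olig1* after thinning. Summed over cells, the erythroid level was 16.5 (15.5 to 17.6) in cells with *olig1* and 364 (362 to 367) in cells without, and each of the 10 markers was lower in cells with *olig1*. The typical cell did not differ, as the median erythroid share of a cell was 0.153% with and 0.152% without *olig1*. Without these 9 cells, an alternative chosen after seeing the data, *olig1* was 10.7 at 0 myelin UMIs, 7.36 at 1 to 2 and 0.0155 (1 UMI) at 50 or more, so the pattern was as large without them. *olig2* moved to 53.3 at 10 to 49 and to 39.5 at 50 or more.

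*olig3* had a different pattern at each stage. At 28 hpf it was highest in progenitor-like cells, 0.901 (0.844 to 0.962), with a UMI in 31.6% of them and in 14.9% after thinning, against 0.139% of erythroid-like cells. Cycling progenitor-like cells (0.456) and V2b/Kolmer-Agduhr-like cells (0.448) followed and did not differ beyond counting error, and neuronal precursor-like cells had 0.340 (0.304 to 0.379). Motor neuron-like cells had 0.0260 (13 UMIs), 25.4-fold (14.8 to 47.9) below the progenitors, and V3-like cells 0.0422 from 4 UMIs, 15.6-fold below (6.09 to 57.5). Along the precursors the level was 0.484 in cluster 4 and 0.183 in cluster 7.

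At 60 hpf *olig3* stood at 0.0876 (0.0646 to 0.116) in non-cycling progenitor-like cells, 10.3-fold (7.70 to 14.1) below 28 hpf. Over cycling and non-cycling progenitors together it was 6.38-fold (4.92 to 8.42) below. Its highest level was now in V3-like cells, at 0.731 (0.606 to 0.875) with 119 UMIs over 256 cells, 7.07-fold (5.13 to 9.83) above the progenitors and 17.3-fold (6.59 to 64.6) above the V3-like cells of 28 hpf. With cells of 500 genes or more kept, the log2 ratio over the progenitors was 0.90 in place of 2.82. The 27 cycling progenitor-like cells, with 0.497 (0.248 to 0.889) from 11 UMIs, could not be told apart from the V3-like cells. Nor were they apart from the cycling progenitor-like cells of 28 hpf (0.456), at 1.09-fold (0.540 to 1.96). The V3-like class held 51.3% of the *olig3* UMIs of the stage, yet only 8.43% of its cells (5.30% to 12.6%) had one after thinning, against 0 of the erythroid-like, muscle-like, skin-like and mesenchyme-like cells. No *olig3* UMI was found in OPC/OL-like cells (upper limit 0.0126), nor in clusters 12, 13, 17 and 20 of the motor neuron-like cells, and V2b/Kolmer-Agduhr-like cells had 3.

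*olig4* was highest in committed neuronal precursors at 28 hpf, with a level of 0.947 (0.887 to 1.01) and 50.3% of the *olig4* UMIs of the stage. This was 7.85-fold (6.84 to 9.03) above the progenitors, cycling or not, and the log2 ratio of 2.97 was 2.16 without predicted doublets and 4.09 with the libraries clustered separately. Cluster 7 stood at 1.498 (1.39 to 1.61), 3.39-fold (2.91 to 3.96) above cluster 4 (0.442), while *olig2* was lower in cluster 7, as given above. A UMI of *olig4* was found in 31.0% of cluster 7 and in 17.1% after thinning. The motor neuron-like cluster of 28 hpf, cluster 8, had 0.170, 8.82-fold (7.03 to 11.2) below cluster 7. Next in order were V3-like (0.190), progenitor-like (0.181), motor neuron-like (0.170) and V2b/Kolmer-Agduhr-like cells (0.143). Among these, direct neighbours did not differ beyond counting error, and classes further apart in the order were not compared. Cycling progenitor-like cells had the lowest level, 0.0692 (0.0551 to 0.0858), apart from that of the V2b/Kolmer-Agduhr-like cells. Erythroid-like cells held no *olig4* UMI after thinning.

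At 60 hpf *olig4* was highest in progenitor-like cells, at 0.493 (0.436 to 0.555) and 8.16% of cells after thinning, against 0 to 1.28% of the background classes, and in the 27 cycling ones, at 0.632 (0.346 to 1.06), where 9 of 14 UMIs lay in 1 cell. Over both kinds of progenitors it was 4.13-fold (3.48 to 4.90) above 28 hpf, the opposite direction to *olig3*. In non-cycling progenitor-like cells alone *olig4* was 2.71-fold (2.24 to 3.29) above 28 hpf. Over all neural classes, however, *olig4* was lower at 60 hpf, 0.180 against 0.282, as *olig3* was. Neuronal precursor-like cells made up 18.6% of cells at 28 hpf and 0.145% at 60 hpf, so the progenitor classes may be made up differently. The part of this in the ratio was not tested. Motor neuron-like cells had 0.139 (0.126 to 0.154), 3.57-fold (3.05 to 4.18) below the progenitors, whereas at 28 hpf they had been 1.41-fold (1.09 to 1.80) above. Set beside the non-cycling progenitor-like cells of 28 hpf alone (0.181), the motor neuron-like cells of that stage were not apart. Motor neuron-like cells themselves were not apart between the stages, at 0.170 and 0.139. Among their clusters, cluster 20, which is led by the posterior genes *hoxb13a* and *hoxc13a*, stood out at 0.549 (0.409 to 0.721), 3.69-fold (2.69 to 4.98) above cluster 1 and 4.05-fold (2.46 to 6.82) above cluster 12. Clusters 13 and 17 had 3 *olig4* UMIs each. V3-like cells had 0.295 (0.217 to 0.391), OPC/OL-like cells 8 UMIs, and V2b/Kolmer-Agduhr-like cells 0 (upper limit 0.0223).

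The posterior hox genes were then used to divide each class, an added comparison chosen after the data were seen. At 60 hpf, progenitor-like cells with a UMI of any of 6 hox13 genes, which mark the tail end of the body axis, had an *olig4* level of 1.003 (0.857 to 1.17) against 0.268 (0.218 to 0.325) in the other cells. In motor neuron-like cells the levels were 0.264 (0.233 to 0.298) and 0.0668 (0.0551 to 0.0802) at 60 hpf, and 0.728 (0.564 to 0.924) and 0.0441 (0.0261 to 0.0696) at 28 hpf. Neuronal precursor-like cells at 28 hpf had 1.67 (1.40 to 1.98) and 0.881 (0.820 to 0.945). Progenitor-like cells at 28 hpf went the other way, with 0.0577 (0.0307 to 0.0987) in cells with a hox13 UMI and 0.217 (0.185 to 0.252) in the rest. *olig3* was higher in the hox13 progenitor-like cells at both stages, 1.45 against 0.745 at 28 hpf and 0.209 against 0.0342 at 60 hpf. In neuronal precursor-like cells it was 0.903 against 0.288. *olig2* was also higher in hox13 cells, at 45.5 against 37.7 and 31.2 against 24.9 in progenitor-like cells of 28 and 60 hpf. It was 29.5 against 15.1 in neuronal precursor-like cells and 6.01 against 3.59 in motor neuron-like cells of 60 hpf. In motor neuron-like cells of 28 hpf *olig2* was lower with hox13, 0.706 against 1.11. The median depths were alike, 6514.5 and 5929 UMIs in progenitor-like cells of 28 hpf and 5504 and 5655 at 60 hpf, but 7385.5 and 5927.5 in motor neuron-like cells of 60 hpf.

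Along a scale of neuron transcripts each member had its own course. Cells of the neural classes other than OPC/OL-like cells were grouped by their thinned UMIs of 6 neuron genes (*elavl3*, *elavl4*, *stmn1b*, *gng3*, *sncb* and *snap25a*). At 28 hpf *olig2* had 21.5 at 0 neuron UMIs, 30.8 at 1 to 2, 28.3 at 3 to 5, 18.0 at 6 to 10 and 7.55 over 10. The level of *olig4* was higher in each range than in the one before, with 0.0399, 0.0574, 0.164, 0.304 and 0.535 in the same order. *olig3* stood at 0.664, 0.629, 0.606 and 0.489 and then at 0.233 over 10, and *olig1* varied least, between 0.0435 and 0.0932. At 60 hpf *olig2* went from 13.2 through 30.7 to 4.62, while *olig4* reached 0.267 (0.223 to 0.318) at 6 to 10 and was 0.192 (0.176 to 0.209) over 10. *olig3* at 60 hpf was highest at 1 to 2 neuron UMIs, 0.149 (0.0947 to 0.224), and stood at 0.0592 over 10.

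**Figure D3:**
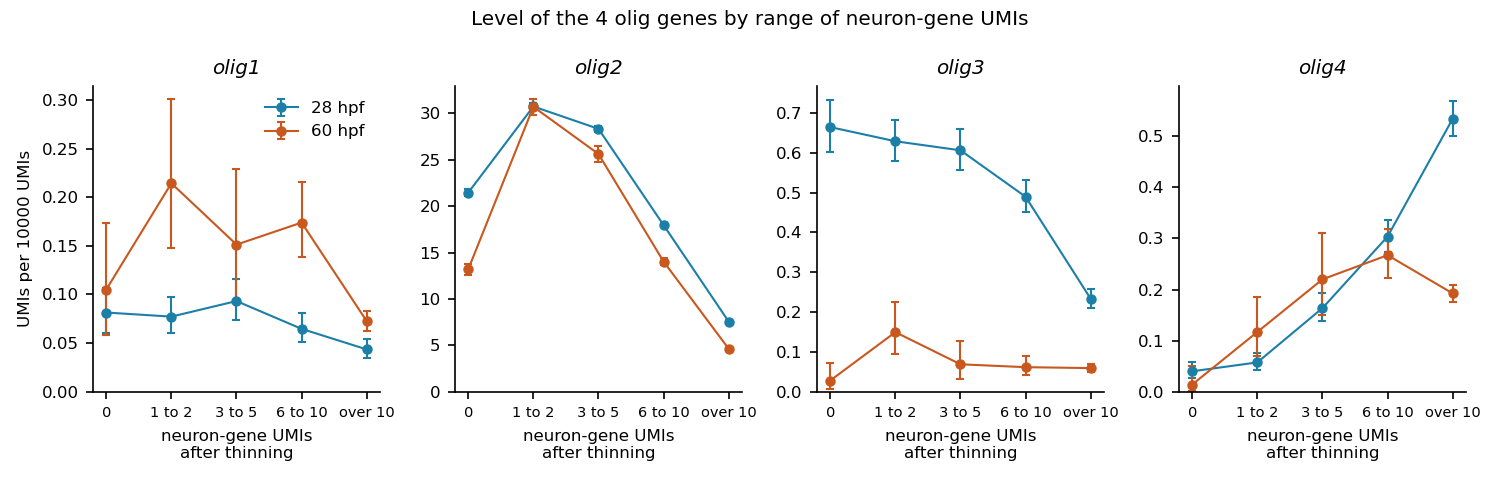
Level of each olig gene in UMIs per 10000 UMIs, with 95% counting intervals, in neural cells other than OPC/OL-like cells grouped by their UMIs of 6 neuron genes after thinning, at 28 hpf and 60 hpf. *olig2* was highest at 1 to 2 neuron UMIs at both stages, and *olig4* went from 0.0399 to 0.535 over the ranges at 28 hpf.

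Co-detection was read after thinning, as the number of cells with both members over the number that the product of their shares gives. In progenitor-like cells of 28 hpf nearly every cell with another member also held *olig2*. This was so for 204 of 217 cells with *olig3*, for 44 of 44 with *olig4* and for 38 of 38 with *olig1*, and since 89.1% of all cells of the class held *olig2*, the ratios were 1.05 (0.915 to 1.21), 1.12 (0.815 to 1.51) and 1.12 (0.794 to 1.54). Where *olig2* was less widespread, *olig3* and *olig2* were found together more often than the shares give. The ratio cannot rise far above 1 where nearly every cell holds *olig2*, so its size cannot be compared between classes. The ratio was 1.26 (1.03 to 1.53) in cycling progenitor-like cells, 1.49 (1.21 to 1.82) in neuronal precursor-like cells, with 93.2% of *olig3* cells holding *olig2*, and 1.59 (1.26 to 1.99) in V2b/Kolmer-Agduhr-like cells.

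Of the cells with *olig4*, fewer held *olig2*. In neuronal precursor-like cells 123 of 173 *olig4* cells (71.1%) held *olig2*, a ratio of 1.14 (0.943 to 1.35), and within cluster 7 the ratio was 1.72, with 74 cells holding both. *olig3* and *olig4* were found together in 22 precursor-like cells, 1.91 times (1.19 to 2.89) the number the shares give. In motor neuron-like cells at 60 hpf, 22 of 53 cells with *olig4* held *olig2*, a ratio of 2.12 (1.33 to 3.21). *olig1* and *olig2* shared 61 OPC/OL-like cells, 84.7% of those with *olig1*, which the shares give as well (0.963, 0.737 to 1.24). The clusters of a class had unlike levels, as given above, and their part in these ratios was not tested.

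**Figure D4:**
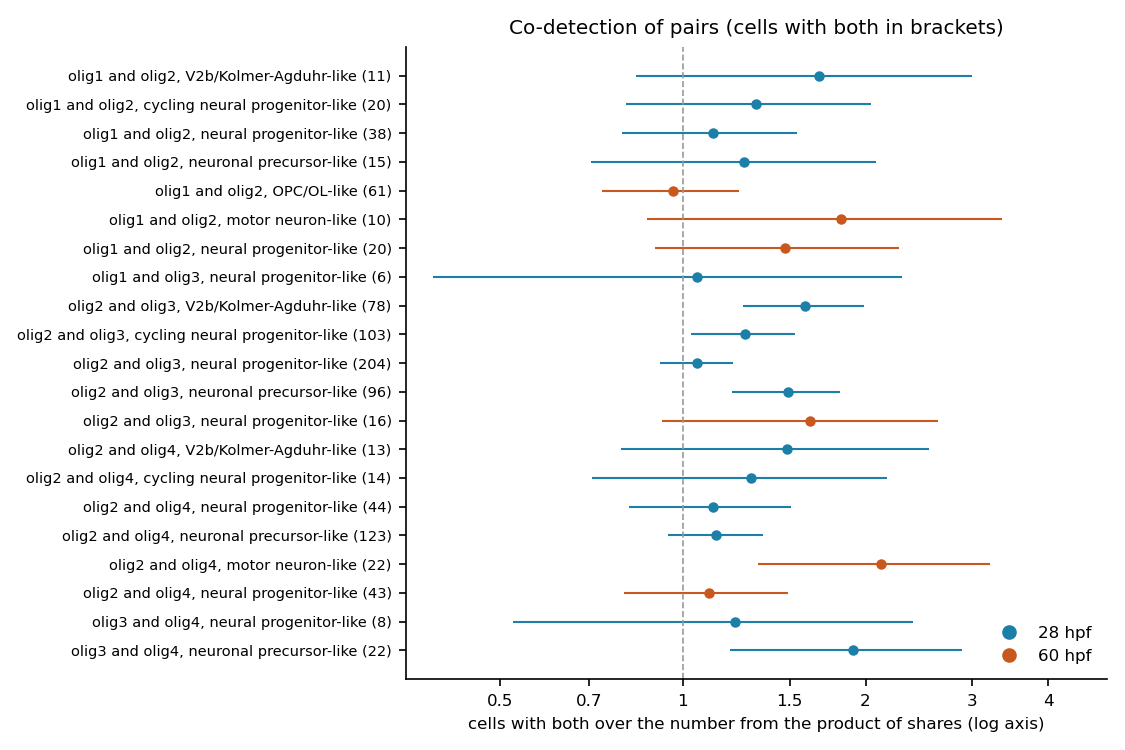
Cells holding both members of a pair after thinning to 2000 UMIs, over the number from the product of the shares (log axis, dashed line at 1), for the pairs, classes and stages where that number is at least 5, with 95% counting intervals and the number of cells with both in brackets. The pair *olig2* and *olig3* stood above 1 with its whole interval in 3 of the 4 classes of 28 hpf, and *olig1* and *olig2* in OPC/OL-like cells at 0.963. The ratio has a lower ceiling where *olig2* is more widespread, as in progenitor-like cells of 28 hpf.

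Cells with 1 member or none were the rule. In progenitor-like cells of 28 hpf, 70.4% held *olig2* alone, 17.8% held 2 members and 14 cells held 3 after thinning, and 1 cell of the neural classes held all 4, a progenitor-like cell of 60 hpf. In OPC/OL-like cells 70.5% held *olig2* alone, 17.5% held 2 members and 8.88% held none. In V3-like cells of 60 hpf 12.05% (30 cells) held another member without *olig2*, against 0 to 3.95% in the other class and stage pairs. Of their 21 cells with *olig3*, 0 held *olig2* where the shares give 1.43, and 0 held *olig4*, so that a lack of overlap could not be detected at this depth. In neuronal precursor-like cells 61 cells (3.95%) held another member without *olig2*.

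To describe the company each member keeps, all genes were compared between cells with and without it after thinning, in the class and stage of its highest level among those with at least 20 cells in each group. A gene was counted when its levels differed by 2-fold or more, given 20 UMIs in either group and a pseudocount of 1 UMI, a rule of size and not a test, under which genes near 20 UMIs can pass by counting error. In OPC/OL-like cells 72 had *olig1* and 277 did not, with median depths of 6857 and 7150 UMIs. Of 8378 genes, 764 (9.12%) were at least 2-fold higher and 923 (11.0%) at least 2-fold lower in the cells with *olig1*. The oligodendrocyte list, with 15 of 16 genes measured, had 8 genes lower, 1 higher and a median of -1.95 on the log2 scale, against 0.10 over all genes. Lower were *mbpb* (0.0861 and 40.2, with and without *olig1*) and *cldnk* (0.0172 and 7.33), which encode myelin proteins, *myrf* (0.430 and 4.23), the factor that drives myelin genes, and *gpr17*, *mbpa*, *plp1a*, *plp1b* and *mpz*. Higher was *cspg4* (0.344 and 0.0298), a progenitor marker, which only just met the minimum of 20 UMIs. Of 5 measured genes of the V2 and Kolmer-Agduhr list, which mark other cell types, 4 were also lower, *gata3* (0 and 20 UMIs), *tal1* (0 and 22), *gad1b* (1 and 24) and *gad2* (1 and 56), and their part in this comparison was not tested. Of 9 measured Notch and proneural genes, 1 was higher, the Notch target *her4.1* (6.78 and 1.57), and 0 were lower. The median of that list was -0.37. Of 8 cell cycle genes 3 were lower, *pcna* (0.0688 and 0.669), *mcm5* and *cdk1*.

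The highest ratios in cells with *olig1* belonged to *aplnrb* (3.96 and 0.222), *sema5a* (2.82 and 0.384), *CR848047.1*, *phlda1* (3.51 and 0.490) and *her4.4* (3.68 and 0.571), and the lowest, beside *mbpb* and *cldnk*, to *si:ch73-335m24.2*, *lmo7a* and *kank1a*, each with 0 UMIs in the cells with *olig1*. Without the 9 cells rich in erythroid transcripts, 610 genes were higher and 935 lower, and *mbpb* stood at 0.0861 and 42.4. *olig2* did not pass the rule, with 51.5 (49.7 to 53.4) and 46.9 (46.0 to 47.8).

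*olig2* in OPC/OL-like cells was a comparison of 307 cells against 42. Of 8712 genes, 427 (4.90%) were higher and 450 (5.17%) lower in cells with *olig2*, close in number to each other. The oligodendrocyte list had 2 of 15 higher, *sox9b* (3.73 and 1.15) and *prdm8*, and 4 lower, *mbpa*, *mbpb*, *mpz* and *cldnk*, with a median of -0.12 against -0.05 over all genes. The globin gene *hbbe1.1* was among the 5 highest (35.4 and 10.1), but the 10 erythroid markers summed to 287 in cells with *olig2* and 355 in cells without, and 5 of 10 were higher. Without the 9 cells rich in erythroid transcripts, 392 genes were higher and 468 lower. The part of the erythroid transcripts in the other cells was not tested. Among the 5 highest were also *nppc*, the complement gene *c7b* (18.1 and 4.47) and *slc35f1*, and the 5 lowest were *fxyd1*, *h1-10*, *cldn7a*, *ctnna2* and *si:ch211-156j16.1*.

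In progenitor-like cells of 28 hpf, 1294 cells had *olig2* and 158 did not, a comparison added after the data were seen. Of 11793 genes, 632 (5.36%) were higher and 554 (4.70%) lower in the cells with *olig2*. The Notch and proneural list had 6 of 14 genes higher and 1 lower, with a median of 0.85 against -0.06 over all genes. The neurogenic factor *neurog1* stood at 2.51 and 0.240, *ascl1a* at 0.854 and 0.221, *neurod1* at 1.17 and 0.258 and the Notch ligand *dld* at 2.82 and 0.987, and *neurod4* and *insm1b* also passed, while *ascl1b* was lower. Of 11 ventral patterning genes, *nkx6.1* (1.19 and 0.433) and *nkx6.2*, factors of the ventral domains that include pMN, were higher. Lower were *nkx2.2a* and *nkx2.2b* (0.488 and 1.13), which mark the domain below pMN, and *pax6b* and *dbx1a*. The dorsal list had 3 of 5 lower, *pax3a* (0.0442 and 0.793), *msx1b* and *zic2a*. The other members were all higher, *olig3* at 0.988 and 0.194, *olig4* at 0.201 and 0.0184 and *olig1* at 0.123 and 0.0277, though the last 2 rested on 2 and 3 UMIs in the cells without *olig2*. The 5 highest genes were *neurog1*, *olig3*, *neurod1*, *gadd45gb.1* (0.790 and 0.203) and *ascl1a*, and the 5 lowest *apoc1* (0.115 and 1.96), *si:ch211-220m17.4*, *phox2bb* (0.165 and 1.03), *crlf1a* and *efemp2b*.

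**Figure D5:**
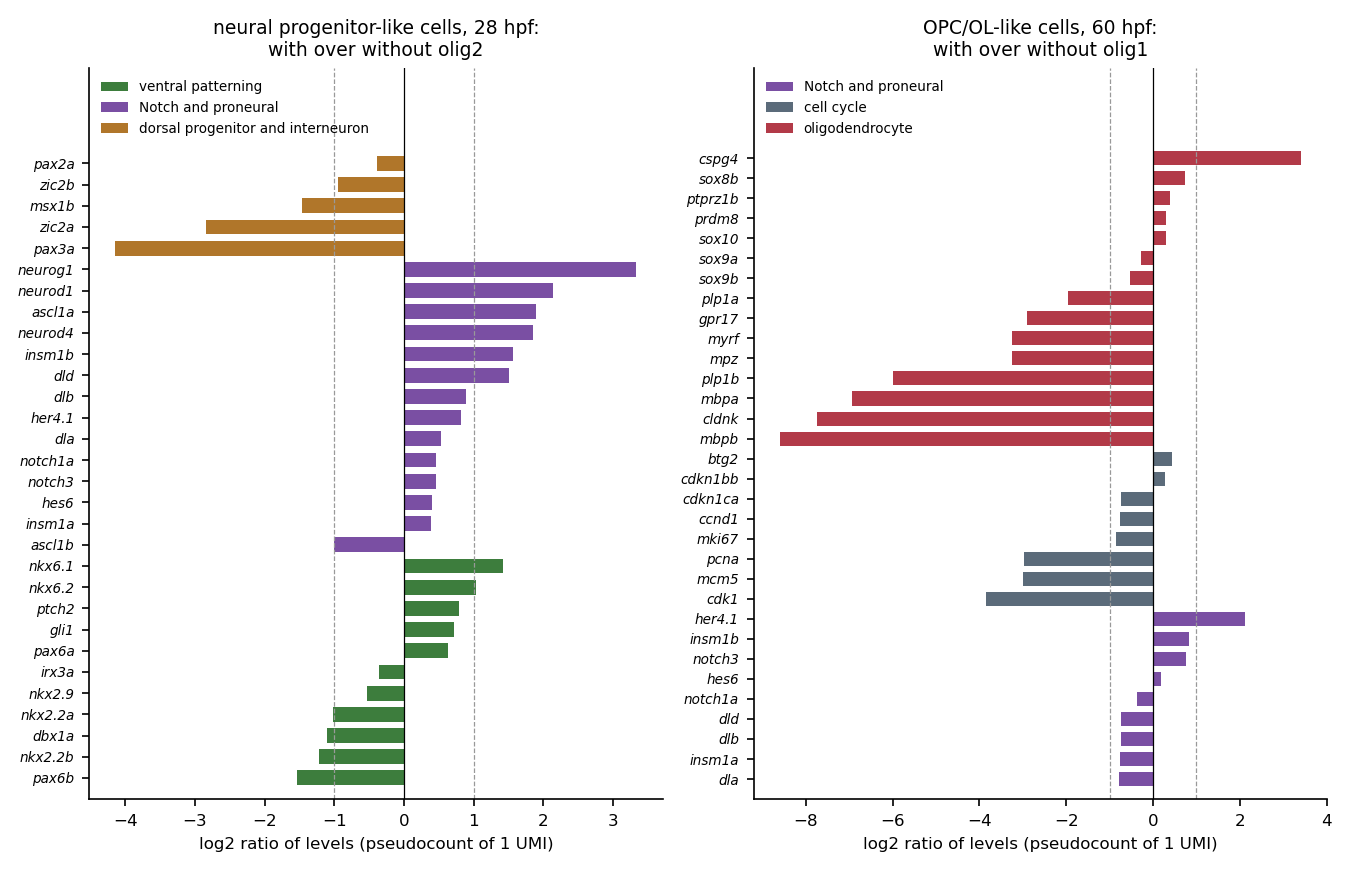
Log2 ratio of the level in cells with the member over cells without it (dashed lines at 2-fold), for the measured genes of 3 lists each: *olig2* in 1452 neural progenitor-like cells at 28 hpf (left) and *olig1* in 349 OPC/OL-like cells at 60 hpf (right). On the left *neurog1* had the highest (3.34) and *pax3a* the lowest value (-4.14), and on the right *cspg4* (3.41) and *mbpb* (-8.61).

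*olig3* in progenitor-like cells of 28 hpf compared 217 cells with 1235. Of 11582 genes, 633 (5.47%) were higher and 310 (2.68%) lower in cells with *olig3*. The V2 and Kolmer-Agduhr list had 6 of 8 genes higher, with a median of 1.29 against 0.09 over all genes. These were *gata3* (0.549 and 0.163) and *gata2a* and *tal1* (1.01 and 0.422), factors of V2b and Kolmer-Agduhr neurons, *vsx1*, a factor of V2 precursors, and *sox1a* and *sox1b*. Of 14 Notch and proneural genes 4 were higher, *ascl1a* (1.42 and 0.684), *neurod1* (2.06 and 0.916), *neurod4* and *insm1b*. Of 7 dorsal genes, *pax3a* and *pax7a* were lower and *pax2a* higher. No list gene of the ventral patterning group passed, and *olig2* stood at 62.2 (60.9 to 63.5) and 35.8 (35.4 to 36.2), under 2-fold. The 5 highest genes were *gata3*, the heat shock gene *hsp70l* (3.07 and 1.02), *apoeb*, *nog1* and *hoxa13b*, and the 5 lowest *phox2bb*, with 0 and 261 UMIs, *fgfbp3*, *myo1cb*, *hoxc1a* and *pum3*.

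The V3-like cells of 60 hpf were compared for *olig3* as an addition, with only 21 cells against 228. Of 7224 genes, 678 (9.39%) were higher and 1140 (15.8%) lower in cells with *olig3*. The V3 markers *uncx* (6.38 and 3.31), *sim1a* (2.66 and 1.51), *slc17a6b* (4.36 and 2.42), *slc17a6a* (1.70 and 0.845) and *uncx4.1* (1.94 and 0.651) were present in both groups. *nkx2.2b* and *nkx2.9* had 1 and 0 UMIs in the cells with *olig3*, while *nkx2.2a*, of the ventral patterning list, was higher. The 10 neuronal precursor markers went both ways. Higher levels with *olig3* were seen for *scrt1a* (12.1 and 1.89), *nhlh2* (15.8 and 4.89), *neurod1* (8.40 and 2.31), *ebf2* (4.60 and 1.44) and *dlb* (5.49 and 3.87). Lower levels were seen for *insm1b* (0.404 and 1.40), *scrt2* (0.646 and 1.65), *insm1a* (0.727 and 1.13), *dla* (1.37 and 1.72) and *neurod4* (0.0807 and 0.121). Lower were 6 of 7 motor neuron genes, 5 of 7 V2 and Kolmer-Agduhr genes, 6 of 6 dorsal genes and 6 of 8 ventral patterning genes. The transcripts of mature neurons *nefma*, *scg2b*, *vipb* and *sncgb* and the homeobox gene *otpa* were also lower, at 0 or 1 UMI. The other 4 of the highest 5 beside *scrt1a* were *stap2a*, *bcl11ba*, *s1pr1* and *sulf2b*. *olig4* passed as lower, with 0 UMIs in the cells with *olig3* and 48 in the cells without. Its levels were 0 (upper limit 0.298) and 0.322 (0.237 to 0.427), so that the intervals overlapped.

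*olig4* in neuronal precursor-like cells of 28 hpf compared 173 cells with 1371. Of 11033 genes, 609 (5.52%) were higher and 544 (4.93%) lower in cells with *olig4*. The Notch and proneural list had 5 of 13 genes higher, with a median of 0.80 against 0.04 over all genes. These were *neurog1* (2.96 and 0.783), *ascl1a*, *neurod1* (6.87 and 2.72), *insm1a* (12.2 and 5.41) and *insm1b* (8.91 and 3.32), while the receptor *notch3* (0.636 and 1.45) was lower. Of 9 motor neuron genes 0 passed in either direction. *olig3* was higher, at 0.606 and 0.306, and *olig2*, at 19.3 and 16.0, was not. Also among the highest 5 were *hes2.2*, the Notch ligand *dlc*, *scrt1a* and *uncx* (0.858 and 0.217), and the lowest were *rbpja*, *met*, *gli2a*, *vmp1* and *plp1a*. Median depths were 5243 and 5968 UMIs.

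Cluster 7, which had the higher *olig4* level of the precursor clusters, was also compared alone, after the data were seen, with 121 cells against 586. Of 8294 genes, 348 (4.20%) were higher and 398 (4.80%) lower in cells with *olig4*. Here 6 of 13 Notch and proneural genes were higher and 0 lower, among them *neurog1* (2.04 and 0.572), *neurod4* (3.94 and 1.14), *dld* and *her4.1*, and *olig2* (9.29 and 3.38) and *olig3* (0.414 and 0.139) passed as well. Of 9 motor neuron genes, *isl2b* and *slc18a3a*, the vesicular acetylcholine transporter, were lower and 0 were higher. Among the 5 highest were *gadd45gb.1*, *foxo6b* and *egr1*, and the 5 lowest were *crhr1*, *si:dkey-85n7.6*, *ppp1r1c*, *cntn4* and *galr2b*.

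In progenitor-like cells of 60 hpf, a further addition, 63 cells had *olig4* and 709 did not, with median depths of 4517 and 5736 UMIs. Of 10264 genes, 842 (8.20%) were higher and 872 (8.50%) lower in cells with *olig4*. Higher were 3 of 14 Notch and proneural genes, *insm1a* (4.102 and 1.81), *insm1b* (3.91 and 1.27) and *ascl1a*. Of 9 motor neuron genes 1 was higher, *mnx2b* (1.66 and 0.761), and 8 passed in neither direction. Lower were *her4.1* (6.22 and 16.5) and 4 of 9 cell cycle genes, *pcna* (0.188 and 0.787), *mki67* (0.322 and 1.11), *top2a* and *cdk1*. Of the 5 highest genes 3 were hox13 genes, *hoxc13a* (2.73 and 0.644), *hoxb13a* (4.45 and 1.101) and *hoxa13b*, beside *egr4* and *glra3*, and the lowest were *plpp3*, *cldn7a*, *rrm2*, *sost* and *hepacama*.

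Over the 13 pairs of neural class and stage, the genes whose levels were most like each member were found among 13273 genes by Pearson's r of log2(level + 0.1), a description over points that share libraries. For *olig1* they were *swap70b* (0.969), *si:dkeyp-72h1.1*, *mag* (0.964), *c7b* and *fa2h*, of which *mag* and *fa2h* are myelin genes. The *olig1* level was 5.07 in OPC/OL-like cells and at most 0.226 in the other pairs, so 1 pair weighs heavily in these values. Within OPC/OL-like cells *mag* went the other way. It stood at 6.27 in cells without an *olig1* UMI and at 0 in those with 10 to 19 and with 20 or more. For *olig2* they were *plp1a* (0.936), *ercc1* (0.916), *zgc:92242*, *rgs12a* and *xrcc1*, and *ercc1* is the gene next to *olig1* in the RefSeq table. For *olig3* they were *phox2a* (0.932), *chrm4a*, *auts2b*, *fam13a* and *mycn*, and for *olig4* *insm1b* (0.908), *rbpjb*, *dlb*, *hmgn6* and *lix1l*. The members were less like each other, with 0.538 for *olig1* and *olig2*, 0.446 for *olig3* and *olig4* and -0.300 to 0.154 for the other 4 pairs.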

How the data were processed

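Fluorescent trunk cells of Tg(olig2:dsred) embryos were measured at 28 hpf and 60 hpf, 1 library each, with a 3′ single cell kit. Deposited were UMI counts (a molecule is counted once) for each gene in each cell, without normalization. The authors had made them with Cell Ranger (5.0.0 per the file headers) on GRCz11, per the submitters' processing notes. The gene annotation is not given in the sources used here.

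Kept were cells with 1000 genes or more and 24824 genes seen in more than 2 cells. Both libraries were clustered together in scanpy 1.11.5 (anndata 0.12.19, igraph 0.11.9, scikit-learn 1.9.0, numba 0.67.0, numpy 2.4.6, scipy 1.17.1, pandas 2.3.3, Python 3.11.15; plots with matplotlib 3.10.9) without batch correction, on log counts per 10000, 4000 variable genes less the 4 olig genes, values capped at 10, 50 components, 15 neighbours and Louvain resolution 1 with seed 7, which gave 29 clusters. Clusters were named by the marker list of highest median log2 fold against all other cells, if at least 1 and with 3 markers in at least 5% of cells, unless its 10 leading genes spoke for another list.

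Levels have exact Poisson intervals, shares exact binomial intervals and ratios exact intervals conditional on the total, all at 95%, and a class needed 20 cells in a library. For shares and co-detection, cells were thinned to 2000 UMIs, which left out 82 and 149 cells. With 1 library per stage no p-value was computed. The genes named are the 4 members, the 5 genes most like each in level, the 5 genes at each end of each comparison with at least 200 UMIs, and list genes past 2-fold. V3 and young neuron markers in V3-like cells, and genes that lead clusters, were named after their values were seen. The members, lists and tests were chosen with earlier results of these data known.

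Doublets were predicted by Scrublet score at 0.8% per 1000 cells, 563 and 243 cells, and removed in an alternative only. Other alternatives changed the gene and mitochondrial limits, the resolution, the clustering by library, the thinning, the totals, the mean over cells, the fold and the UMI minimum. The methods were tested on simulated data.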

Additional observations from a re-analysis of the deposited data

Results flagged for a closer look

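For *olig4*, the ratio of motor neuron-like cells over progenitors, cycling or not, was 0.49 on the log2 scale at 28 hpf and -1.84 at 60 hpf, so that the 2 stages lay on opposite sides. The progenitors of 28 hpf included 1206 cycling cells with a level of 0.0692, those of 60 hpf only 27 cycling cells. The 1461 non-cycling cells of 28 hpf stood at 0.181, not apart from the motor neuron-like cells, so the opposite sides hold only for the pooled progenitors. The motor neuron-like level itself was 0.170 and 0.139, a log2 ratio of -0.28 (-0.63 to 0.07) of 60 over 28 hpf. The progenitor level was 0.121 at 28 hpf and 0.498 at 60 hpf, and the progenitor classes may be made up differently. For *olig3*, the ratio of V3-like cells over the same progenitors was -3.97 at 28 hpf, from 4 UMIs, and 2.82 at 60 hpf. With 1 library per stage neither difference between the stages was tested, and the stage and the library cannot be told apart.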

How the results depend on the processing

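Of 78 values recomputed under alternatives, 36 stayed within the counting interval or, for counts of genes, within 1.5 times, 40 moved and 2 reversed. The reversed values were the log2 ratio of *olig1* in OPC/OL-like cells over progenitors (4.52), which was -4.98 at Louvain resolution 2 and -4.92 with the libraries clustered separately, because the cluster that held *olig1* lost the OPC/OL name there. For the other moves the cause was not tested. With at least 500 genes per cell, the *olig2* ratio of motor neuron-like cells at 28 hpf (-4.91) was -5.08, the *olig4* ratio of precursors (2.97) was 3.31, the *olig1* ratio 5.44 and the *olig3* ratio of V3-like cells at 60 hpf (2.82) was 0.90. With at most 4000 genes and 20% mitochondrial UMIs, the *olig2* ratios of motor neuron-like cells were -4.20 at 28 hpf and -4.63 at 60 hpf (-2.63), and those of *olig4* and *olig1* were 2.77 and 3.92. With predicted doublets removed, the same 4 ratios were -5.53, -2.83, 2.16 and 4.22. At resolution 2 the *olig2* ratios were -3.46 and -2.94 and the *olig4* ratio 3.85, and by library they were -3.51, -3.07 and 4.09. As means over cells the 4 ratios were -5.13, -3.13, 2.77 and 5.15.

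The thinned share of progenitors, cycling or not, with *olig2* at 28 hpf (81.4%) was 88.5% with at least 500 genes, 88.3% at resolution 2, 79.4% with each library on its own and 72.7% with thinning to 1000 UMIs. At 60 hpf (62.1%) it was 77.4% with at least 500 genes, 71.4% with at most 4000 genes, 74.0% without predicted doublets, 74.4% at resolution 2, 74.5% by library and 54.5% with thinning to 1000 UMIs. At 1.5-fold, 3264 genes passed for *olig1* (1687 at 2-fold), 2479 for *olig2* (877), 3189 for *olig3* (943) and 3111 for *olig4* (1153), and with a minimum of 50 UMIs 861, 338 (196 higher, 142 lower), 344 and 478 (189 higher, 289 lower). Leaving out the 9 OPC/OL-like cells rich in erythroid transcripts, chosen after seeing the data, moved neither gene count by over 1.5 times. In 4 cases no value was obtained: the *olig3* ratios of both stages without predicted doublets, where no V3-like class of 20 cells was left, and *olig1* with *olig2* in OPC/OL-like cells at resolution 2 and by library. No paired analysis was possible because each stage has 1 library. Depth limits *olig1*, *olig3* and *olig4* most.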
